A study of Macaca fascicularis with 23 samples.

Results

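The comparison set the livers of cynomolgus monkeys (Macaca fascicularis) given high doses of ciprofibrate against those given low doses. The high-dose class held 8 animals, 4 at 150 and 4 at 400 mg/kg/day, and the low-dose class held 8, 4 at 3 and 4 at 30 mg/kg/day. All 16 were dosed for 15 days, and they made up 16 of the 23 animals of the series. They were chosen by dose and day from the sample labels, and no expression value entered the choice. The vehicle animals were left out of the test, and the 3 vehicle animals of 15 days are given only as background. The labels name no strain, sex or age, and they call the animals of a dose biological replicates, with 1 array each.

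Fibrates bind PPAR-alpha, a nuclear receptor of hepatocytes that pairs with RXR and switches on genes for the uptake, binding and oxidation of fatty acids. In rodents the response includes many peroxisomal enzymes. In primates it is known to be weaker, and mitochondrial oxidation and lipoprotein genes have been of most interest.

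The quantity measured was probe set intensity on a human gene array, in MAS5 units scaled so that the trimmed mean of each array was close to 150. Array medians ran from 55 to 71.6, and the mean correlation of an array with the other arrays of its dose ran from 0.866 to 0.926. The ratio of 5' to 3' ACTB signal, a measure of RNA integrity, was 0.685 ± 0.155 (SD, n = 8) at low and 0.660 ± 0.123 (SD, n = 8) at high doses (two-sided exact permutation p = 0.759, 0.845 after adjustment over 2 ratios). The probes were designed on human sequence, so values are compared only within a probe set.

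Between high and low doses 174 of 12558 probe sets were called (1.39%), 90 higher (0.717%) and 84 lower (0.669%) at the high doses. In 35 probe sets (0.279%) the 8 high and 8 low arrays did not overlap, 17 higher (0.135%) and 18 lower (0.143%). A probe set was called at a Benjamini-Hochberg adjusted p under 0.05 from limma, and its difference is the mean of the 2 high doses minus the mean of the 2 low doses on the log2(intensity + 16) scale, which understates changes of weak signals. With each gene represented by 1 probe set, 120 of 8226 genes were called (1.46%), 63 that rose (0.766%) and 57 that fell (0.693%), around a median of -0.02 over all genes. Fatty acid desaturation and mitochondrial oxidation genes and antioxidant enzymes were among the genes that rose. CYP2E1 and several secreted liver proteins were among those that fell. When the arrays were scaled to a common median the split was 93 higher and 48 lower, so 66% of calls were higher in place of 51.7%.

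The largest rise was in FADS2, a desaturase of polyunsaturated fatty acid synthesis and a PPAR-alpha target. Its intensity ran from 11.4 to 404 in the low-dose animals (median 19.9) and from 521 to 1112 in the high-dose animals (median 614). It rose by 3.53 ± 0.41 (SE) on the log2 scale, 11.5-fold (adjusted p = 8.67e-05), and no high-dose animal overlapped the low-dose animals. The low-dose class was itself uneven. At 3 mg/kg/day the 4 animals lay between 11.9 and 25.8, whereas at 30 mg/kg/day they gave 52.3, 11.4, 404.3 and 345.2. So 2 of the 4 animals at 30 mg/kg/day lay closer to the animals at 150 mg/kg/day, 520.7 to 580.5, than to the other two. Signals near the pseudocount of 16, as at 3 mg/kg/day, were not shown to exceed background, and the fold depends on it.

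**Figure D1:**
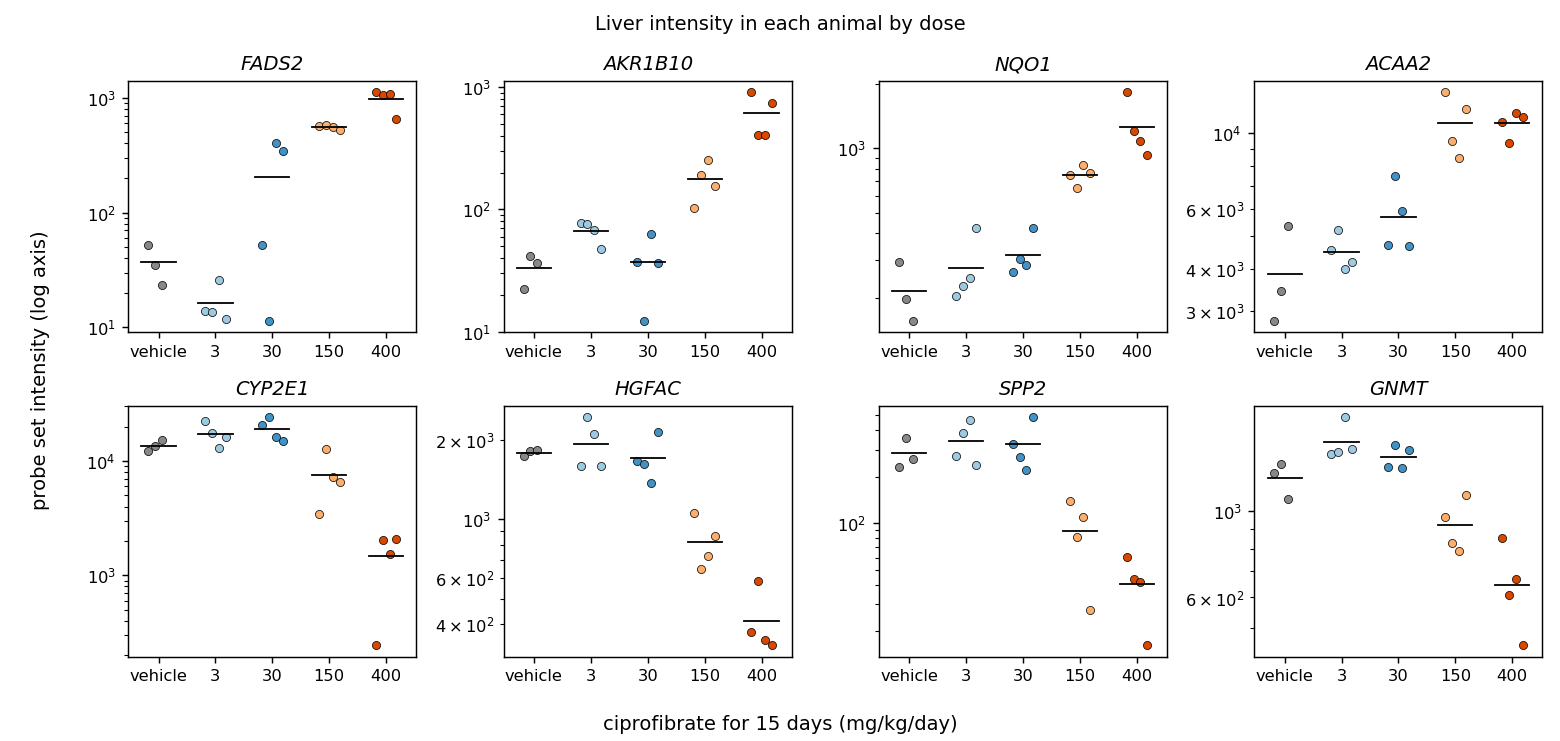
Intensity of 4 genes that rose (top) and 4 that fell (bottom) in each animal at 15 days, on log axes, by dose of ciprofibrate; points are animals and bars are group means, with the 3 vehicle animals in grey for reference. The 8 genes were chosen among those whose low-dose (blue) and high-dose (orange) animals do not overlap, so the gap reflects that choice. FADS2 at 30 mg/kg/day spreads from 11.4 to 404.3.

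Other genes of fatty acid synthesis and modification rose with FADS2. Of 19 represented members of that list, 5 rose (FADS2, ELOVL5, SCD, ME1 and SREBF1) and 0 fell, with a median difference of 0.30. This was 26.3% called, against 1.46% of all represented genes. The lists were chosen with earlier results of these data known, so a high share may in part reflect that choice. The same limit and the same share over all genes apply to each list below. SCD, which makes monounsaturated fatty acids, had intensities from 38.4 to 297 in the low-dose animals (median 61.1) and from 173 to 1557 in the high-dose animals (median 662). It rose by 2.43 ± 0.37 (SE) on the log2 scale, 5.37-fold (adjusted p = 0.00147), and the classes overlapped, with 296.8 and 274.8 in 2 animals at 30 mg/kg/day. These were the same animals that stood high for FADS2, replicates 3 and 4. ELOVL5, an elongase of polyunsaturated fatty acids, had intensities from 86.5 to 297 in the low-dose animals (median 162) and from 175 to 680.2 in the high-dose animals (median 362). It rose by 1.12 ± 0.17 (SE) on the log2 scale, 2.17-fold (adjusted p = 0.00112). A weaker ELOVL5 probe set gave 0.38 ± 0.22 (SE, adjusted p = 0.563) and was not called. ME1, the malic enzyme that supplies NADPH for lipid synthesis, rose by 1.07 ± 0.19 (SE) on the log2 scale, 2.10-fold (adjusted p = 0.0067), and a further ME1 probe set was called in the same direction at 1.37 while a weak one gave -0.09. SREBF1, a transcription factor of lipid synthesis, rose by 0.55 ± 0.12 (SE) on the log2 scale, 1.47-fold (adjusted p = 0.0191), with a mean that stood at 428 ± 66.3, 621 ± 63.0, 716 ± 65.0 and 824 ± 180.1 (SD, n = 4) from the lowest to the highest dose. Of 17 represented genes of cholesterol synthesis and uptake 0 were called, with a median of 0.02. At a share of 1.46% over all represented genes, lists of this size would often hold no call. The same holds for the other short lists without a call below.

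Some genes of mitochondrial fatty acid oxidation rose. Of 18 represented members 4 rose (22.2%), 0 fell and 13 had a difference above 0, with a median of 0.39. ACAA2, the thiolase of the last step of the cycle, had intensities from 3989 to 7494 in the low-dose animals (median 4674) and from 8463 to 13151 in the high-dose animals (median 10957). It rose by 1.09 ± 0.13 (SE) on the log2 scale, 2.12-fold (adjusted p = 8.67e-05), and each high-dose animal exceeded each low-dose animal. HADHB, the beta subunit of the trifunctional protein, had intensities from 1595 to 4247 in the low-dose animals (median 3441) and from 5386 to 7843 in the high-dose animals (median 7034) and rose by 1.16 ± 0.16 (SE) on the log2 scale, 2.23-fold (adjusted p = 0.000792), again without overlap. Its partner subunit HADHA rose by 0.73 ± 0.14 (SE) on the log2 scale, 1.65-fold (adjusted p = 0.0102), and ETFA, which passes electrons from the acyl-CoA dehydrogenases to the respiratory chain, rose by 0.54 ± 0.12 (SE) on the log2 scale, 1.46-fold (adjusted p = 0.0213), both with overlapping classes. ACADM, the medium-chain dehydrogenase, was strongly expressed in both classes and was not called (0.38 ± 0.13, adjusted p = 0.2). The mean of ACAA2 stood at 4481 ± 539, 5688 ± 1337, 10719 ± 2133 and 10676 ± 908 (SD, n = 4) from the lowest to the highest dose, so its 2 high doses had nearly equal means. HADHB, at 2516 ± 1084, 3839 ± 547, 6902 ± 1072 and 6604 ± 847, had the same shape.

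Among 24 represented PPAR-alpha targets, 7 rose and 0 fell, with a median of 0.45 and 16 above 0. This was 29.2% called, against 1.46% of all represented genes, in a list chosen with earlier results known. The 7 were FADS2, ACAA2, HADHB, HADHA, FABP1, SCD and SLC22A5, of which 5 are counted in the lists above as well. FABP1, which carries fatty acids in the hepatocyte cytosol, had intensities from 362 to 3588 in the low-dose animals (median 1459.8) and from 3404 to 12948 in the high-dose animals (median 9066). It rose by 2.32 ± 0.35 (SE) on the log2 scale, 4.98-fold (adjusted p = 0.00137), and the classes overlapped at their edges. SLC22A5, the plasma membrane carnitine carrier, rose by 1.38 ± 0.25 (SE) on the log2 scale, 2.61-fold (adjusted p = 0.00693). Its dose means were 207 ± 45.5, 155 ± 61.3, 351.4 ± 158 and 765 ± 323 (SD, n = 4), so the animals at 400 mg/kg/day stood highest. Known targets that were not called included PLIN2, a lipid droplet coat protein (0.90 ± 0.23, adjusted p = 0.0666), VNN1, a pantetheinase (0.64 ± 0.21, adjusted p = 0.188), and ACSL1, an acyl-CoA synthetase (0.55 ± 0.19, adjusted p = 0.2). CPT1A, the carnitine acyltransferase of the outer mitochondrial membrane (0.19 ± 0.24, adjusted p = 0.83), and PDK4, which restrains pyruvate oxidation (-0.08 ± 0.26, adjusted p = 0.944), had small differences. APOA1 (-0.22 ± 0.12, adjusted p = 0.528) and APOC3 (-0.02 ± 0.12, adjusted p = 0.973), the lipoprotein genes most often linked to fibrates, were not called. PPARA itself was not called (-0.10 ± 0.13, adjusted p = 0.831). Its means of 884 ± 142, 531 ± 141, 857 ± 122 and 461 ± 50.5 (SD, n = 4) were lower at 30 than at 3 and lower at 400 than at 150 mg/kg/day. Neither step passed the test (adjusted p = 0.582 for 30 against 3 and 0.0945 for 400 against 150).

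None of 12 represented genes of peroxisomal fatty acid oxidation was called with limma, beside 1.46% of all represented genes, at a median of 0.07. SLC27A2, a very-long-chain acyl-CoA synthetase, gave 0.85 ± 0.21, adjusted p = 0.0555, and ABCD3, a peroxisomal half-transporter, 0.69 ± 0.21, adjusted p = 0.147. ACOX2 gave -0.54 ± 0.14, adjusted p = 0.0688, and PHYH, with weak signals, -0.93 ± 0.31, adjusted p = 0.188. ACAA1, the peroxisomal thiolase, gave 0.07 ± 0.12, adjusted p = 0.887, and EHHADH, the peroxisomal bifunctional enzyme, -0.63 ± 0.25, adjusted p = 0.338. CAT, catalase, gave 0.01 ± 0.22, adjusted p = 0.997. EHHADH and CAT were named outside the rule for list members. Among 9 represented peroxisome assembly genes 0 were called. ECH1, an auxiliary enzyme of unsaturated fatty acid oxidation that is on none of the lists quoted here and was picked after its values were seen, rose by 0.77 ± 0.13 (SE) on the log2 scale, 1.71-fold (adjusted p = 0.00502). In the ketone body list, BDH1, the mitochondrial hydroxybutyrate dehydrogenase, rose as 1 of 3 represented members (0.62 ± 0.14, adjusted p = 0.0258).

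Antioxidant and stress enzymes formed the other large group of rises. In the oxidative stress and NRF2 list 6 of 31 represented genes rose (19.4%) and 0 fell, with a median of 0.17. AKR1B10, an aldo-keto reductase, had intensities from 12.3 to 77.3 in the low-dose animals (median 55.2) and from 103 to 903 in the high-dose animals (median 330.3). It rose by 2.36 ± 0.24 (SE) on the log2 scale, 5.15-fold (adjusted p = 1.71e-05), and the classes did not overlap. Its dose means were 67.0 ± 13.9, 37.5 ± 20.8, 176 ± 63.8 and 614 ± 248 (SD, n = 4). On the log2 scale, relative to the low-dose mean, they were 0.35, -0.35, 1.52 and 3.21. The rise thus lay at both 150 and 400 mg/kg/day, and the step between these doses was not called. NQO1, a quinone reductase, had intensities from 205 to 426 in the low-dose animals (median 273) and from 651 to 1819.9 in the high-dose animals (median 878) and rose by 1.67 ± 0.16 (SE) on the log2 scale, 3.19-fold (adjusted p = 1.71e-05), with no overlap. TXN, thioredoxin, rose by 0.81 ± 0.13 (SE) on the log2 scale, 1.76-fold (adjusted p = 0.00337), with means of 791 ± 168, 698 ± 149.5, 959 ± 103 and 1789 ± 372 (SD, n = 4). GPX4, the lipid hydroperoxide peroxidase, rose by 0.64 ± 0.12 (SE) on the log2 scale, 1.56-fold (adjusted p = 0.0067) without overlap. EPHX1, microsomal epoxide hydrolase (0.66 ± 0.14, adjusted p = 0.0213), and FTL, the ferritin light chain (0.53 ± 0.12, adjusted p = 0.0233), rose with overlapping classes. None of 9 represented glutathione S-transferases was called, beside 1.46% of all represented genes, at a median of -0.19. A probe set that names both GSTA2 and GSTA1 and so lies outside the list rose by 0.92 ± 0.19 (SE, adjusted p = 0.0184), with 1.48 for 400 against 30 (adjusted p = 0.0167) and 0.35 for 150 against 3 mg/kg/day (adjusted p = 0.898).

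**Figure D2:**
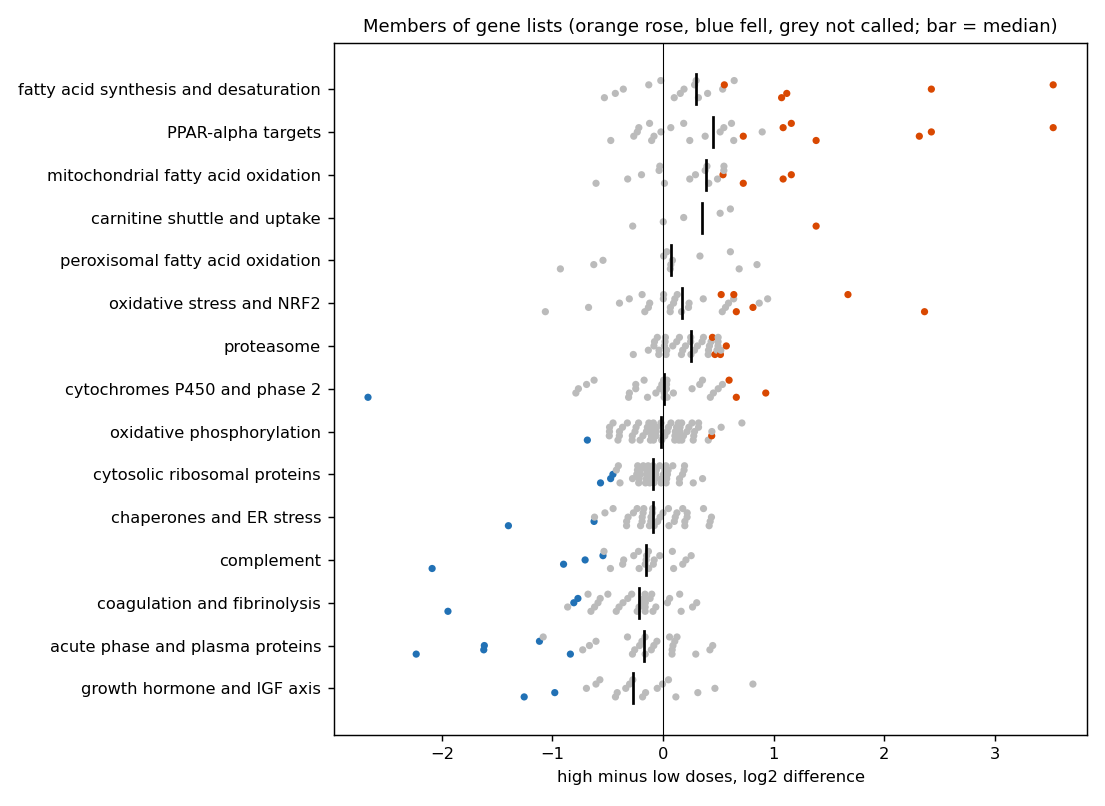
Difference between high and low doses (horizontal axis, log2) for each represented member of 15 gene lists (vertical axis); orange points rose, blue points fell, grey points were not called and the black bar is the list median. Called members of the lipid and antioxidant lists lie to the right, up to 3.53 for FADS2, and called members of the complement, coagulation, plasma protein and growth hormone lists lie to the left.

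Further genes without overlap came from other functions. BLVRB, which reduces biliverdin and flavins, had intensities from 416 to 752 in the low-dose animals (median 642) and from 916 to 2676 in the high-dose animals (median 1501) and rose by 1.30 ± 0.16 (SE) on the log2 scale, 2.47-fold (adjusted p = 0.00016). GDF15, a secreted stress cytokine, rose by 1.40 ± 0.26 (SE) on the log2 scale, 2.64-fold (adjusted p = 0.00954) from a low-dose median of 163.7 to a high-dose median of 355.1. XIAP, an inhibitor of caspases, rose by 1.31 ± 0.22 (SE) on the log2 scale, 2.48-fold (adjusted p = 0.00464), but all 8 low-dose animals lay between 12.9 and 21, near the pseudocount. RBM3, a cold-inducible RNA-binding protein, rose by 1.07 ± 0.17 (SE) on the log2 scale, 2.10-fold (adjusted p = 0.00176). DHRS7, a short-chain dehydrogenase, rose by less (0.75 ± 0.12, adjusted p = 0.0029). The vehicle animals did not always sit with the low doses. BLVRB was 948 ± 129 (SD, n = 3) in vehicle, above all 8 low-dose animals, and GDF15 was 219 ± 51.9.

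Of 38 represented proteasome subunits 4 rose and 0 fell: PSMB6 (0.52 ± 0.10, adjusted p = 0.0143), PSMB5 (0.47 ± 0.10, adjusted p = 0.0213), PSMB3 (0.57 ± 0.13, adjusted p = 0.0347) and PSMD2 (0.45 ± 0.11, adjusted p = 0.0426). The differences were small but 31 of 38 were above 0, with a median of 0.25. PSMB5 and PSMB6 are subunits of the catalytic core and PSMD2 belongs to the regulatory cap. PSMB3 and PSMD2 each lost their call when any of 12 of the 16 animals was left out. All 4 calls were lost without the variance trend.

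Among 32 represented cytochromes P450 and phase 2 genes, 3 rose and 1 fell, at a median of 0.01 (mean -0.05). CYP3A4, a major drug-metabolising P450, rose by 0.93 ± 0.19 (SE) on the log2 scale, 1.90-fold (adjusted p = 0.0134). Its probe set belongs to a family of near-identical genes, 2 weaker CYP3A4 probe sets gave -0.33 and -0.04, and the mean over the 3 was 0.19 (adjusted p = 0.647). Which CYP3A gene rose is therefore uncertain. CYP4F12, a fatty acid and xenobiotic hydroxylase, also rose (0.60 ± 0.14, adjusted p = 0.0368). ALDH1A1, which oxidises retinal and other aldehydes, rose by 0.81 ± 0.17 (SE) on the log2 scale, 1.75-fold (adjusted p = 0.0196) and was the 1 called member of 20 represented aldehyde and alcohol dehydrogenases.

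CYP2E1, the ethanol- and fatty-acid-oxidising P450 and 1 of the strongest signals of the liver, had the largest fall. Its intensity ran from 12968 to 24211 in the low-dose animals (median 16899) and from 244 to 12870.2 in the high-dose animals (median 2781). It fell by 2.67 ± 0.35 (SE) on the log2 scale, 6.35-fold (adjusted p = 0.000305), and a further probe set fell by 2.26. The highest value of the high-dose class, 12870.2, lay just under the lowest of the low-dose class, 12967.8, so the classes did not overlap by a narrow margin. By dose, the means were 17277 ± 3880.4, 18930.3 ± 4295, 7526 ± 3921 and 1479 ± 859 (SD, n = 4). The vehicle mean was 13669 ± 1635 (SD, n = 3).

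Several genes of secreted liver proteins fell. In the acute phase and plasma protein list 5 of 28 represented genes fell and 0 rose, with a median of -0.18. HGFAC, the protease that activates hepatocyte growth factor, had the smallest p of all 12558 probe sets. Its intensity ran from 1366 to 2436 in the low-dose animals (median 1644) and from 332 to 1054 in the high-dose animals (median 614). It fell by 1.62 ± 0.15 (SE) on the log2 scale, 3.07-fold (adjusted p = 1.25e-05), with dose means of 1929 ± 415, 1700.3 ± 326, 822 ± 179 and 410.0 ± 117 (SD, n = 4) and no overlap. SPP2, a secreted phosphoprotein, had intensities from 221 to 487 in the low-dose animals (median 299.7) and from 16.2 to 138 in the high-dose animals (median 52.4) and fell by 2.23 ± 0.26 (SE) on the log2 scale, 4.70-fold (adjusted p = 8.67e-05), also without overlap. ITIH2, an inter-alpha-trypsin inhibitor heavy chain (-1.12 ± 0.16, adjusted p = 0.00082), AGT, angiotensinogen (-0.84 ± 0.14, adjusted p = 0.00372), and PZP, a protease inhibitor (-1.62 ± 0.35, adjusted p = 0.0213), fell with overlapping classes. PZP had dose means of 1509 ± 662, 1161 ± 361, 1169.7 ± 972 and 193 ± 112 (SD, n = 4). CPN1, the catalytic subunit of carboxypeptidase N, had intensities from 224 to 553 in the low-dose animals (median 294) and from 131 to 187 in the high-dose animals (median 171) and fell by 0.95 ± 0.15 (SE) on the log2 scale, 1.93-fold (adjusted p = 0.00288).

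In the complement list 4 of 24 represented genes fell and 0 rose, with a median of -0.16. CFHR4, a factor H-related protein, had intensities from 305 to 1320.5 in the low-dose animals (median 613) and from 22.8 to 276 in the high-dose animals (median 156) and fell by 2.09 ± 0.35 (SE) on the log2 scale, 4.25-fold (adjusted p = 0.00372), with no overlap. C8B (-0.90 ± 0.17, adjusted p = 0.0118) and C8A (-0.70 ± 0.16, adjusted p = 0.0358), chains of the terminal attack complex, and CFB, factor B of the alternative pathway (-0.54 ± 0.11, adjusted p = 0.0157), fell by less. After scaling to a common median, C8A and CFB no longer passed the test. In the coagulation list 3 of 33 fell and 0 rose, and 27 lay below 0, with a median of -0.22. FGL1, a fibrinogen-like protein secreted by hepatocytes, fell by 1.94 ± 0.34 (SE) on the log2 scale, 3.85-fold (adjusted p = 0.00502). The contact factors F12 (-0.77 ± 0.14, adjusted p = 0.00686) and F11 (-0.81 ± 0.17, adjusted p = 0.0213) fell too, and F11 lost its call after the same scaling. In the growth hormone and IGF list 2 of 19 fell and 0 rose, with a median of -0.27. IGFALS, which stabilises circulating IGF, fell by 1.26 ± 0.18 (SE) on the log2 scale, 2.39-fold (adjusted p = 0.00082), and IGF1 fell by 0.98 ± 0.20 (SE) on the log2 scale, 1.97-fold (adjusted p = 0.0181). A second IGF1 probe set fell by 1.37, and a pair of weaker ones gave -0.75 and -0.38 without a call.

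APOB, the structural protein of VLDL and LDL, fell by 0.88 ± 0.18 (SE) on the log2 scale, 1.84-fold (adjusted p = 0.0154), but its vehicle mean of 6142 ± 868 (SD, n = 3) was close to the high-dose mean of 6161 ± 2537 (SD, n = 8). A second APOB probe set gave -0.47 ± 0.12 (SE, adjusted p = 0.0795) and was not called. The APOB call was lost after scaling to a common median (adjusted p = 0.0511) and without the variance trend (adjusted p = 0.0667). APOA4, an apolipoprotein of triglyceride-rich particles, fell by 2.22 ± 0.47 (SE) on the log2 scale, 4.67-fold (adjusted p = 0.0203). Its classes overlapped, with intensities from 45.8 to 1020 in the low-dose and from 16.2 to 166 in the high-dose animals. Its call was lost in limma without the variance trend (adjusted p = 0.0613). APOB and APOA4 were the called members of 20 represented apolipoprotein genes, whose median of -0.06 became 0.00162 when arrays were scaled to a common median. GNMT, which disposes of excess methyl groups, had intensities from 1297 to 1749 in the low-dose animals (median 1429.8) and from 451 to 1103 in the high-dose animals (median 811) and fell by 0.91 ± 0.12 (SE) on the log2 scale, 1.87-fold (adjusted p = 0.000402) without overlap. NNMT, nicotinamide N-methyltransferase, fell by 1.69 ± 0.41 (SE) on the log2 scale, 3.22-fold (adjusted p = 0.0471), and lost its call without any of 13 of the 16 animals. DPYS, a pyrimidine-degrading enzyme, fell by 0.65 ± 0.16 (SE) on the log2 scale, 1.57-fold (adjusted p = 0.0388), without overlap, but lost its call without any of 13 of the 16 animals. PCYT1A, the rate-setting enzyme of phosphatidylcholine synthesis, had intensities from 52.6 to 104 in the low-dose animals (median 79.0) and from 5.40 to 48.0 in the high-dose animals (median 19.1) and fell by 1.40 ± 0.26 (SE) on the log2 scale, 2.64-fold (adjusted p = 0.00913). PPIP5K1, an inositol pyrophosphate kinase, fell by 1.20 ± 0.22 (SE) on the log2 scale, 2.30-fold (adjusted p = 0.0067). Their high-dose values lay around the pseudocount, so the folds depend on it: with pseudocounts of 1 and 64 the difference was -2.08 and -0.74 for PCYT1A and -1.82 and -0.61 for PPIP5K1. MYCBP2, a ubiquitin ligase, fell by 0.61 ± 0.13 (SE) on the log2 scale, 1.53-fold (adjusted p = 0.0243). Neither PPIP5K1 nor MYCBP2 overlapped between the classes, and the MYCBP2 call was lost after scaling to a common median.

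In the chaperone and ER stress list 2 of 38 represented genes fell and 0 rose, with a median of -0.09. HSPA5, the main Hsp70 of the endoplasmic reticulum, had intensities from 503 to 2206 in the low-dose animals (median 1212) and from 183 to 729.8 in the high-dose animals (median 351.3). It fell by 1.40 ± 0.29 (SE) on the log2 scale, 2.63-fold (adjusted p = 0.0167). PDIA4, a disulphide isomerase of the same compartment, had intensities from 832 to 1177 in the low-dose animals (median 920.5) and from 508 to 762 in the high-dose animals (median 606) and fell by 0.62 ± 0.11 (SE) on the log2 scale, 1.54-fold (adjusted p = 0.00502) without overlap. The members with the next smallest p lay above 0 and were not called. These were SEC61B (0.43 ± 0.13, adjusted p = 0.125) and HERPUD1 (0.44 ± 0.17, adjusted p = 0.285). The ER chaperone CALR, named outside the rule for list members, gave 0.05 ± 0.23, adjusted p = 0.964. Of 47 represented ribosomal proteins 3 fell, RPS3 (-0.56 ± 0.10, adjusted p = 0.00502), RPS23 (-0.47 ± 0.10, adjusted p = 0.0148) and RPL12 (-0.45 ± 0.11, adjusted p = 0.043). After scaling to a common median RPS3 kept its call, whereas RPS23 (adjusted p = 0.12) and RPL12 (adjusted p = 0.142) did not, and RPL12 also lost its call without any of 11 of the 16 animals. In limma without the variance trend all 3 lost their calls, RPS3 at adjusted p = 0.0581. SDHA, the flavoprotein of respiratory complex II, fell by 0.68 ± 0.12 (SE) on the log2 scale, 1.61-fold (adjusted p = 0.00464), while COX6A1, a subunit of cytochrome oxidase, rose by 0.44 ± 0.10 (SE) on the log2 scale, 1.36-fold (adjusted p = 0.0213). These were the called members of 60 represented respiratory chain genes, and their vehicle means were 1183 ± 96.2 and 9064 ± 83.4 (SD, n = 3). None of 33 glycolysis genes, 30 immediate early genes or 30 nuclear receptors and liver transcription factors was called in this limma fit. The share over all represented genes was 1.46%. CCND1, cyclin D1, was the 1 called gene of 49 cell cycle genes (-0.84 ± 0.18, adjusted p = 0.0213). A further CCND1 probe set fell by 1.05 and a weaker one gave 0.05, and the call was lost after scaling to a common median (adjusted p = 0.0674) and in the mean over the 3 probe sets (adjusted p = 0.167). GOT2, the mitochondrial aspartate aminotransferase, rose (0.59 ± 0.14, adjusted p = 0.0473) as the 1 called gene of 24 urea cycle and amino acid genes, and lost its call without any of 14 of the 16 animals.

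SPARC, a matrix-associated glycoprotein, had intensities from 166 to 345 in the low-dose animals (median 267) and from 97.8 to 165 in the high-dose animals (median 122) and fell by 0.89 ± 0.14 (SE) on the log2 scale, 1.85-fold (adjusted p = 0.00305) without overlap. BGN, the matrix proteoglycan biglycan, picked after its values were seen, fell as well (-0.97 ± 0.18, adjusted p = 0.0067). Among 15 represented stellate cell and fibroblast markers 0 were called, and their summed intensity ran from 1701 to 2319 in the low-dose animals and from 1425 to 2348 in the high-dose animals. Of 11 hepatocyte markers, 7 lay below 0 and 4 above. CYP2E1, ASGR2 and APOB fell (ASGR2 and APOB without a call after scaling to a common median). The summed intensity ran from 91326 to 124085 at low doses (median 98046) and from 58092 to 94192 at high doses (median 65564). Without CYP2E1 the medians were 82397 at low and 62518 at high doses. With CYP2E1, the 3 vehicle animals had sums from 84823.4 to 90864.5, below all low-dose animals and within the high-dose range. The 13 markers of Kupffer cells and other macrophages included 0 calls, and their sums ran from 4299 to 6358 at low doses (median 4620) and from 3114 to 4316 at high doses (median 3937). Much of these sums was CD14, with means of 2888 at low and 2063 at high doses. By gene, 9 of the 13 lay below 0. They included MARCO (-1.34 ± 0.34, adjusted p = 0.0563), CD14 (-0.47 ± 0.12, adjusted p = 0.0638) and CD5L (-0.60 ± 0.27, adjusted p = 0.4). The other 4 lay above 0, among them LYZ (0.61 ± 0.26, adjusted p = 0.374). The macrophage marker sums of the 3 vehicle animals ran from 4537 to 5789. None of 13 sinusoidal endothelial markers was called. In whole liver, fewer cells of a type and less RNA per cell cannot be told apart, and the part of these marker sums in the falls was not tested. ACTB (-0.14 ± 0.13, adjusted p = 0.736) and GAPDH (0.30 ± 0.13, adjusted p = 0.367) were not called.

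The dose means show where within the range the called probe sets moved. The step from 3 to 30 mg/kg/day alone gave 0 calls (814 probe sets with an unadjusted p under 0.05, against 1462 for high against low). The step from 150 to 400 mg/kg/day gave 15 (0.119%). Of the 174 called probe sets, 159 (91.4%) had a mean at 400 that lay beyond that at 150 mg/kg/day in the direction of the call, against 55.2% of all probe sets. The mean at 30 lay beyond that at 3 mg/kg/day in 119 (68.4%), against 50.2% of all. All 3 steps ran one way in 107 of the 174, against 1425 of all 12558 probe sets. The median step of the called probe sets was 0.16 from 3 to 30, 0.50 from 30 to 150 and 0.51 from 150 to 400 mg/kg/day, each taken in the direction of the call. Over all probe sets, turned the same way by the sign of their own difference, the medians were 0.00161, 0.20 and 0.04. The step from 30 to 150 is in part set by the choice of probe sets, since it crosses the contrast that called them, whereas the other two are orthogonal to that contrast and share with it only the arrays and the estimate of spread.

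**Figure D3:**
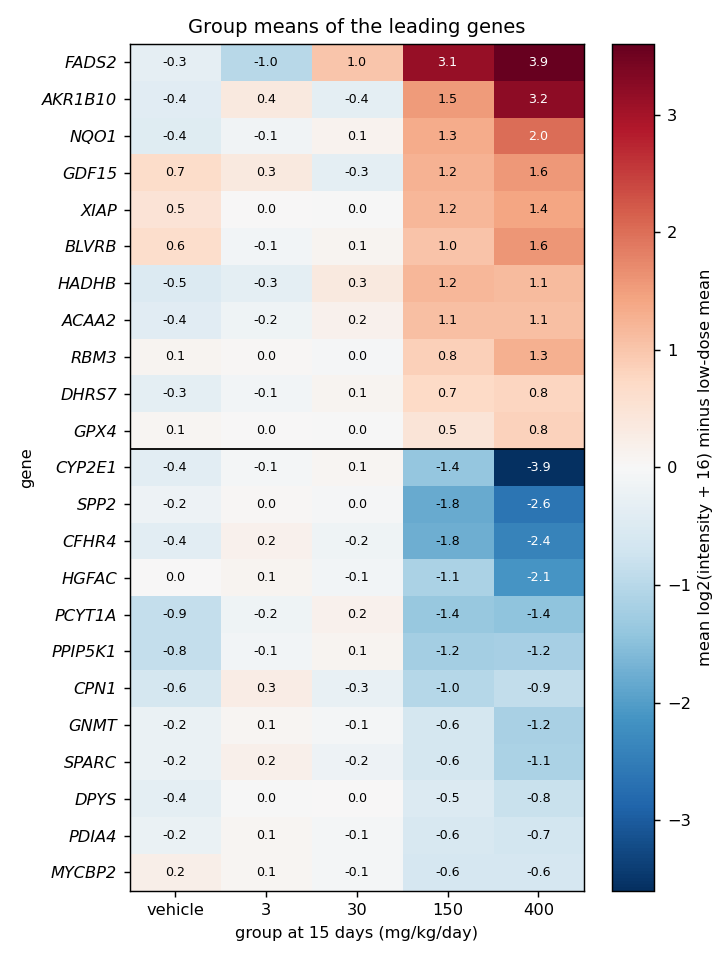
Group means of log2(intensity + 16), relative to the mean of the low doses, for 11 leading rises (above the line) and 12 leading falls in vehicle and at each dose at 15 days; red is higher, blue is lower and the printed numbers are the differences. FADS2 reaches 3.9 and CYP2E1 -3.9 at 400 mg/kg/day, ACAA2 and HADHB stand at about 1.1 at both high doses, and PCYT1A and PPIP5K1 are below the low doses in vehicle as well.

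The vehicle animals allow a further reading of the called probe sets, although the low-dose values that are compared with vehicle also entered the calls. On the log2 scale the vehicle mean was nearer the high-dose than the low-dose mean in 38 of 174 called probe sets (21.8%), 12 of the 90 that rose (13.3%) and 26 of the 84 that fell (31%), against 50.4% of all probe sets. The falls of this kind included CPN1, PCYT1A, PPIP5K1, DPYS, NNMT, APOB, SDHA, RPS3 and RPS23. For these falls the low-dose mean stood above that of vehicle. Among the rises CYP4F12 was of this kind, with vehicle 0.39 above the low-dose mean on the log2 scale, beside a rise of 0.60. PCYT1A was 35.6 ± 13.5 and PPIP5K1 24.5 ± 2.10 (SD, n = 3) in vehicle. Whether these genes differed from vehicle was not tested here.

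Within the high doses, 6 probe sets were higher (0.0478%) and 9 lower (0.0717%) at 400 than at 150 mg/kg/day. The largest difference was in MT1G, a metallothionein that binds zinc and copper. Its 4 values were 7472, 3077, 7153 and 2447 at 150 mg/kg/day and 230.1, 252.4, 705.6 and 168.1 at 400 mg/kg/day, a difference of -3.88 ± 0.43 (SE), adjusted p = 0.000417. The vehicle animals lay between 500.1 and 840.9 and the low-dose animals between 320.9 and 1837, so MT1G stood apart at 150 mg/kg/day, and its class difference was not called (0.63 ± 0.31, adjusted p = 0.446). MT1H (-1.26 ± 0.17 (SE), adjusted p = 0.00412) and MT1F (-0.94 ± 0.18 (SE), adjusted p = 0.0494) were also lower at 400 mg/kg/day. All 10 metallothionein probe sets had lower means at 400 than at 150 mg/kg/day, and 4 of these passed the test. These genes are near-identical, so their probe sets may share signal and are not independent. In the list that also holds the zinc exporter SLC30A1, the median was -0.78 for 400 against 150 and -0.05 for high against low, and the latter was 0.00655 with arrays scaled to a common median. SLC30A1 fell in high against low (-0.61 ± 0.14, adjusted p = 0.0347), a call that was lost after that scaling and without any of 10 of the 16 animals.

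**Figure D4:**
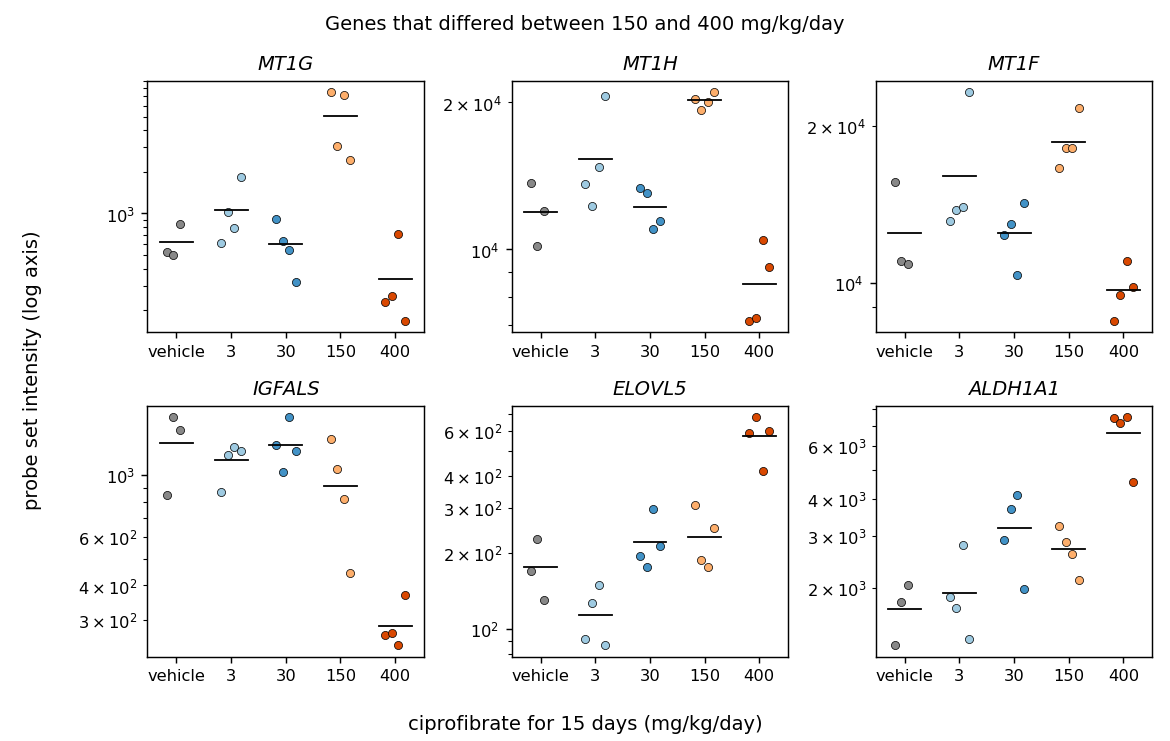
Intensity of 6 genes called between 150 and 400 mg/kg/day in each animal at 15 days, on log axes, by dose; points are animals and bars are group means. The 4 animals at 150 mg/kg/day have MT1G between 2447 and 7472, above all other groups, whereas IGFALS is low at 400 mg/kg/day alone (242.8 to 368.8).

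IGFALS was lower at 400 than at 150 mg/kg/day (-1.54 ± 0.25 (SE), adjusted p = 0.0207), with 263.8, 269.1, 242.8 and 368.8 at 400 mg/kg/day against 1355, 1054, 824.5 and 443 at 150 mg/kg/day. At 150 mg/kg/day 2 of its 4 animals lay within the low-dose range of 873.8 to 1624. CYP2E1 was lower too (-2.56 ± 0.49 (SE), adjusted p = 0.0485), and 1 animal at 400 mg/kg/day, at 244.1, lay far below the other three. ELOVL5 (1.27 ± 0.23 (SE), adjusted p = 0.0409) and ALDH1A1 (1.28 ± 0.24 (SE), adjusted p = 0.0464) were higher at 400 mg/kg/day. EXOSC2, a subunit of the RNA exosome, gave 1.90 ± 0.34 (SE), adjusted p = 0.0342, with means of 173 ± 55.7, 117 ± 42.9, 49.4 ± 18.8 and 238 ± 103 (SD, n = 4), and the vehicle mean of 304 ± 41.2 (SD, n = 3) was nearest that at 400 mg/kg/day. The 15 calls became 5 without replicate 2 at 150 mg/kg/day, 6 without replicate 3 at 150, replicate 1 or 3 at 400 or replicate 1 at 3 mg/kg/day, 7 without replicate 2 at 3 or replicate 1 at 30, 8 without replicate 4 at 150 and 9 without replicate 2 at 400 mg/kg/day.

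The design allows the high-low difference to be taken in animals that are not shared. In a separate fit of 150 against 3 mg/kg/day, 6 probe sets were called (0.0478%), all higher, and in one of 400 against 30 mg/kg/day 53 were called (0.422%), 33 higher (0.263%) and 20 lower (0.159%). The 6 were probe sets of FADS2, ACAA2 and NQO1, 1 that names FADS1 and a microRNA of that locus, and 2 that name CYP3A7 with a neighbouring CYP3A transcript. All 6 of the first were higher in the second (median difference 1.77 in their own fit and 1.84 in the other), and 48 of the 53 of the second (90.6%) went the same way in the first, against 54.9% of all probe sets. The sizes were not alike for the 53, at a median of 1.53 in their own fit, by which they were chosen, and 0.60 in the other. Called in both were NQO1 and 1 of the CYP3A7 probe sets. FADS2 differed by 4.16 between 150 and 3 mg/kg/day (adjusted p = 7.23e-06) and 2.90 between 400 and 30 mg/kg/day (adjusted p = 0.107). ACAA2 differed by 1.24 between 150 and 3 mg/kg/day (adjusted p = 0.0297) and 0.93 between 400 and 30 mg/kg/day (adjusted p = 0.0612). CYP2E1 differed by -1.32 between 150 and 3 mg/kg/day (adjusted p = 0.317) and -4.01 between 400 and 30 mg/kg/day (adjusted p = 0.00987), HGFAC by -1.21 between 150 and 3 mg/kg/day (adjusted p = 0.0571) and -2.03 between 400 and 30 mg/kg/day (adjusted p = 0.00173), and AKR1B10 by 1.17 between 150 and 3 mg/kg/day (adjusted p = 0.398) and 3.56 between 400 and 30 mg/kg/day (adjusted p = 0.00173). IGFALS differed by -0.40 between 150 and 3 mg/kg/day (adjusted p = 0.88) and -2.11 between 400 and 30 mg/kg/day (adjusted p = 0.00121). The 53 calls became 16 without replicate 1, 31 without replicate 2, 25 without replicate 3 and 28 without replicate 4 at 400 mg/kg/day, and 32 and 23 without replicates 1 and 2 at 30 mg/kg/day.

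**Figure D5:**
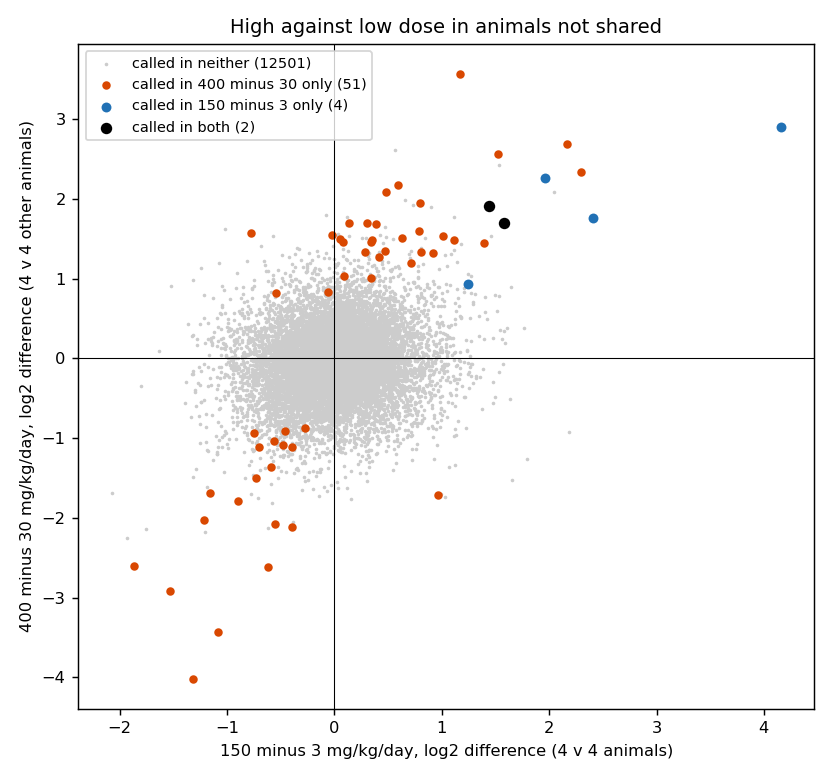
Log2 difference of each of 12558 probe sets between 150 and 3 mg/kg/day (horizontal axis) and between 400 and 30 mg/kg/day (vertical axis), from separate fits of 4 against 4 animals that share no animal; orange, blue and black points were called in the second, the first or both. Of the 53 probe sets called on the vertical axis 48 have the same sign on the horizontal axis, and the 6 called on the horizontal axis are all above 0 on both.

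Where a called gene had several probe sets they were compared. Of 36 such genes, all probe sets ran in one direction in 22, and in 0 were there calls in opposite directions. JUNB, an AP-1 subunit, had a called probe set at -1.31, while its brighter one gave -0.98 ± 0.46, adjusted p = 0.416 and represented the gene as not called.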

How the data were processed

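Liver RNA of each animal was hybridised to a human array. The authors deposited 1 intensity per probe set and array, not logged, and the submitters' processing notes name MAS5 as the tool. Its version is not given in the sources used here, and detection calls were not used here. Trimmed means (2% off each end) of 150.065 to 150.08 showed that arrays were already scaled, so no further scaling was applied. Of 12625 probe sets 67 controls were left out. Of the 12558 tested, 10943 named 1 gene, 545 several and 1070 none, per the platform annotation. log2(intensity + 16) was fitted with limma 3.58.1 in R 4.3.3 as 1 mean per dose over 16 arrays, with an intensity trend (12 residual and 6.94 prior degrees of freedom). Tests were two-sided, with Benjamini-Hochberg adjustment over 12558 probe sets and a threshold of 0.05. The number of arrays limits the precision.

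A gene was represented by its brightest probe set that names it alone. Named were the 12 largest called rises and falls whose classes did not overlap and whose higher class averaged at least 50, the 3 largest each way for 400 against 150 mg/kg/day, up to 4 members with the smallest p of each list discussed, the PPAR-alpha targets, ACTB and GAPDH; 1 gene of this rule is not reported here, SREBF1, FTL and PZP were added after their values were seen to complete the called members of their lists, and others are said to have been picked after their values were seen. EHHADH, CAT and CALR were also named outside this rule. The members and the 40 gene lists were chosen with earlier results of these data known. On simulated data with real means and spreads, the high-low fit on 12558 probe sets recovered 6 of 67 changes of 0.5, 33 of 67 of 1 and 61 of 66 of 2 (log2), with 4 false calls among 12358. The simulated noise was normal and independent between probe sets, and both high doses were shifted alike. These rates may therefore not hold for the real arrays. Alternatives covered pseudocount, filter, scaling, variance options, array weights, a block for replicate number, the model, probe set summary and leaving out each animal. Replicate numbers were not used as pairs in the main fit. Deviations from the dose means correlated between -0.0332 and 0.0594 for same-numbered animals of different doses (n = 24 pairs). Pairs with other numbers gave -0.0746 to 0.0567 (n = 72 pairs). Correlations over all probe sets cannot exclude a pairing that acts on part of the genes.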

Additional observations from a re-analysis of the deposited data

Results flagged for a closer look

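In groups of 4 animals, 11 of 116 sets of intensities, taken over 29 leading genes, held 1 animal that stood far from the other three, where chance would give about 5.8. In 400 mg/kg/day, FADS2 was 647 in replicate 4 (others 1052 to 1112), ALDH1A1 was 4538 in the same animal (others 7186 to 7528), CYP2E1 was 244.1 in replicate 1 (others 1545 to 2092) and CFHR4 was 22.8 in replicate 2 (others 126 to 164.6). In 150 mg/kg/day, XIAP was 27.1 in replicate 1 (others 77.5 to 81.6), and in replicate 4 DPYS was 313.3 (others 473.5 to 505.8) and EXOSC2 was 77.4 (others 36.9 to 42.3). In 30 mg/kg/day, replicate 4 had CPN1 at 223.5 (others 285.2 to 298.2) and DPYS at 737.3 (others 595.6 to 613.6). In 3 mg/kg/day, XIAP was 12.9 in replicate 2 (others 20.3 to 21) and GNMT was 1749 in replicate 3 (others 1409 to 1450.0). The causes were not tested.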

How the results depend on the processing

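Of 69 called genes followed through the alternatives, 34 kept their call in each fit, 35 lost it in at least 1 and 0 changed direction. Scaling to a common median lost 14 (APOB, ASGR2, C8A, CCND1, CFB, DPYS, F11, GOT2, MYCBP2, NNMT, PSMD2, RPL12, RPS23 and SLC30A1). Leaving out the variance trend lost 32, which held all of these except F11. The others were ALDH1A1, APOA4, BDH1, COX6A1, CYP3A4, CYP4F12, EPHX1, ETFA, FTL, GPX4, HADHA, HSPA5, IGF1, PSMB3, PSMB5, PSMB6, PZP, RPS3 and SREBF1. The 174 calls (90 higher, 84 lower) became 73 (40 and 33) without the variance trend and 103 (51 and 52) when the 8 high and 8 low arrays were fitted without separate dose means. Scaling to a common median left 48 lower. The 15 calls of 400 against 150 mg/kg/day became 5 without the trend, 8 after that scaling, and 24 with array weights and also with all 23 arrays, where 30 against 3 mg/kg/day gave 1 call in place of 0. The calls of the separate fits became 2 (150 against 3) and 13 (400 against 30) without the trend. With the replicate number as a block the counts were 168 in all (85 and 83), 13 for 400 against 150, 7 for 150 against 3 and 28 in place of 53 for 400 against 30 mg/kg/day. Leaving out 1 animal at a time gave 121 to 172 calls, 62 to 85 higher and 58 to 87 lower, and 116 to 146 of the 174 remained called. It gave 0 for 30 against 3, 5 to 15 for 400 against 150, 4 to 6 for 150 against 3 and 16 to 58 for 400 against 30 mg/kg/day. Calls lost without any of at least 10 of the 16 animals were those of GOT2 (14), DPYS and NNMT (13), PSMB3 and PSMD2 (12), C8A, CYP4F12 and RPL12 (11) and SLC30A1 (10). BDH1 (6), FTL (5), CCND1, ETFA, MYCBP2 and PZP (4), COX6A1 and F11 (3), EPHX1 and PSMB5 (2) lost theirs less often. The cause of these changes was not tested. Signals near the pseudocount, as for FADS2 at 3 mg/kg/day and XIAP, limit the folds.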

Other observations

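Some animals of the low-dose class differed among themselves in genes that rose at high doses. At 30 mg/kg/day FABP1, the cytosolic fatty acid carrier, was 1590.1 and 1083 in replicates 1 and 2 and 3588 and 3514 in replicates 3 and 4, the animals that stood high for FADS2 and SCD. ACAA2, the mitochondrial thiolase, did not follow that order, with 4697, 7494, 5909 and 4652 in replicates 1 to 4. At 3 mg/kg/day FABP1 ranged from 362.5 to 3414.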
